A study of Mus musculus with 4 samples.

Results

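Cycling CD8 T cells of MC38 tumours were compared between mice given both ATT-I and anti-PD-1, called the combination, and mice given vehicle. A cell was counted as a cycling CD8 cell where its deposited values of Cd8a and Cd8b1 were above 0, Cd8a was above Cd4, Foxp3 was 0, and Mki67 and Top2a were above 0. There were 140 such cells, 100 from the combination and 40 from vehicle, of 13213 cells in the series. By the same rule the ATT-I library held 38 cells and the anti-PD-1 library 1957, and these are used only for context. MC38 is a mouse colon carcinoma line, and the tumours grew from cells implanted orthotopically in C57BL/6 mice. ATT-I is Atractylenolide I, a plant sesquiterpenoid, given daily at 50 mg/kg. Anti-PD-1 was given 3 times a week and 5 times in total, and the combination arm received both agents. Tumours were taken 2 weeks after treatment began, and 5 tumours of an arm were pooled into 1 droplet library, so each arm is 1 sample and nothing below is a test between treatments. The arm called vehicle here is labelled as vehicle control in the treatment protocol and as no treatment in its own entry.

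CD8 T cells recognise peptides on MHC class I through the T cell receptor and kill with perforin and granzymes. When the receptor signals, immediate early factors such as Fos and the Nr4a family are transcribed within a short time, and an activated cell then passes through rounds of division. Dividing cells copy their DNA in S phase, when histone genes are transcribed, and separate it in mitosis, which needs Top2a, while Mki67 is found in all phases of the active cycle. PD-1, encoded by Pdcd1, is an inhibitory receptor of activated and exhausted T cells.

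The values are unique molecular identifiers (UMIs), which count RNA molecules, recovered from the deposited logarithms. The median member held 25466 UMIs in vehicle (2342 to 71680) and 30875 in the combination (7534 to 81165), which sums to 1.04e+06 and 3.23e+06 UMIs. Levels below are UMIs of a gene per 10000 UMIs, summed over the member cells of a library. Ratios are log2 of combination over vehicle, with an exact 95% interval that covers counting error only, not the spread between cells, tumours or mice. In cells of over 35677 UMIs in vehicle and 39554 in the combination, a gene with 1 UMI was deposited as 0. This touched 4 of the 40 vehicle cells and 25 of the 100 combination cells, called clipped cells here, and lowers weakly expressed genes more in the combination. Values from the 36 and 75 other cells are therefore given beside the main ones. Over the 4 libraries, 1 cell barcode occurred in 2 of them, and it belonged to no member cell.

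The cells carried the genes they were selected on. Cd8a, a chain of the CD8 coreceptor, stood at 8.06 UMIs per 10000 in vehicle and 7.56 in the combination. Cd8b1, the other chain, stood at 6.86 and 7.47. Mki67 stood at 11.5 and 10.9, and Top2a, the topoisomerase of dividing cells, at 15.4 and 13.9. These genes chose the cells, so their levels are a description of the selection. Just inside the rule, 1 vehicle and 4 combination cells had a single UMI of Mki67 or Top2a. Just outside it were 5 vehicle and 14 combination CD8 cells, of which 1 and 3 had Mki67 without Top2a and 1 and 7 had neither. The selection did not use Cd3e, a chain of the T cell receptor complex, which was found in all cells of both libraries at 6.99 and 6.96 UMIs per 10000. Trac, the constant part of the receptor's alpha chain, was also found in every cell, at 6.44 in vehicle and 7.70 in the combination.

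Nearly all CD8 cells of both libraries were cycling by this rule. The share was 40 of 45 CD8 cells in vehicle, 88.9% (exact Clopper-Pearson 95% interval 75.9 to 96.3), and 100 of 114 in the combination, 87.7% (80.3 to 93.1). The shares were 80.5% and 81.9% after thinning every cell to 5000 UMIs, which left out 11 vehicle and 6 combination cells. The difference between the libraries lay inside the counting intervals in both readings. In the ATT-I library 36.5% of CD8 cells met the rule and in the anti-PD-1 library 25.5%, or 32.1% and 20.5% after thinning. As a share of all deposited cells, cycling CD8 cells made up 25.8% of vehicle (19.1 to 33.4) and 50.3% of the combination (43.1 to 57.4), or 22.9% and 44.6% after thinning. How cells were chosen for deposit is not stated in the sources used here, and fewer other cells and more cycling CD8 cells cannot be told apart in a share.

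Across the transcriptome, more genes were lower than higher in the combination, with or without the clipped cells. This was not so when counts of 1 UMI were read as 0 in every cell. Genes were compared if 10% or more of either library's members had a UMI and the 140 cells held 20 or more UMIs, which left 8705 of 13518 genes. At least 1.5-fold higher in the combination were 570 genes (6.55%), and at least 1.5-fold lower were 1736 (19.9%). Without the clipped cells 8425 genes entered, 719 of them higher (8.53%) and 1149 lower (13.6%). In both readings 396 genes were higher and 991 lower. The median gene stood at a log2 ratio of -0.12, and at -0.04 without clipped cells. Centred on the median gene, 796 genes were higher and 1325 lower, so the lower genes made up 62.5% of those past 1.5-fold against 75.3% before centring. With every cell thinned to 5000 UMIs only 4653 genes entered, 679 of them higher (14.6%) and 717 lower (15.4%). With counts of 1 read as 0 in both libraries, an alternative chosen after seeing the data that treats all cells alike, 1045 were higher and 1035 lower, with a median log2 ratio of 0.02. The plot of all levels shows Fosb, Rora, Irs2 and Car2 above the band of most genes, and Bcl2, Cd7, Tnfsf8 and Fcer1g under it.

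**Figure D1:**
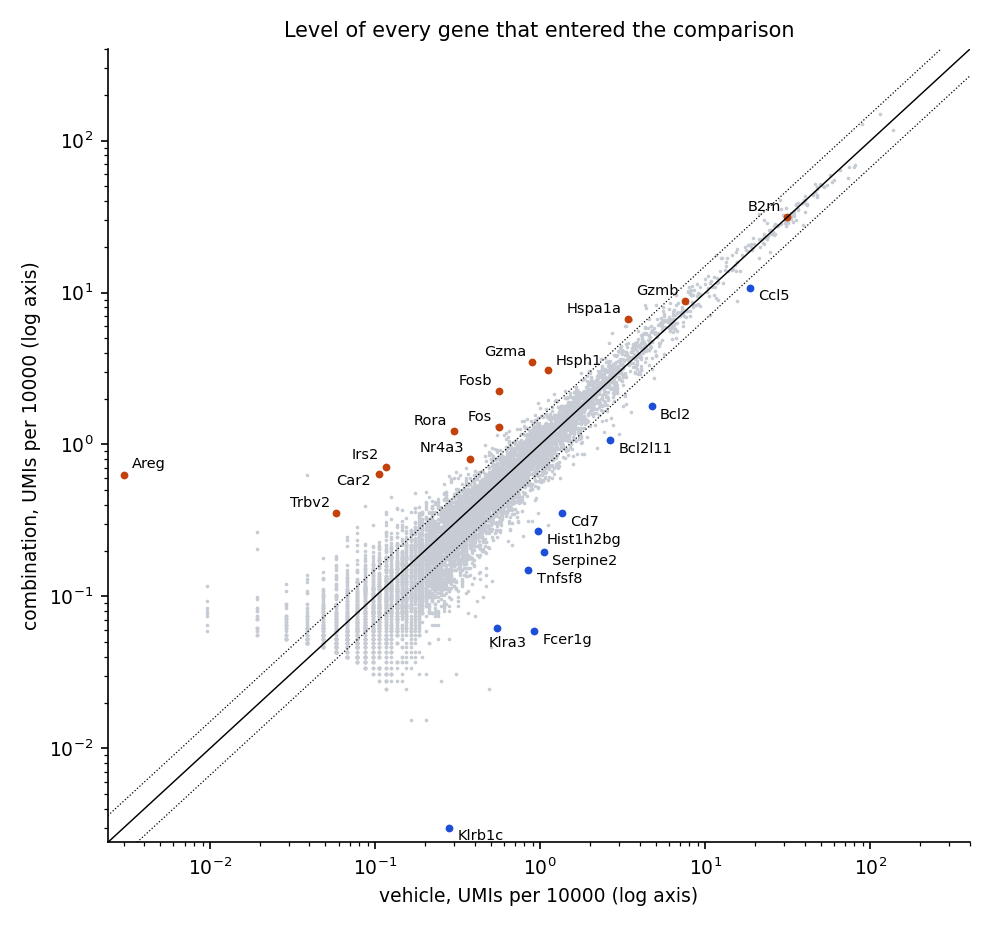
Each point is 1 of the 8705 genes, with its level in UMIs per 10000 over the 40 vehicle cells (x axis, log) and the 100 combination cells (y axis, log). The solid line marks equal levels and the dotted lines a ratio of 1.5; orange points are labelled genes higher in the combination and blue points labelled genes lower, and levels of 0 are drawn at the edge (Areg in vehicle, Klrb1c in the combination).

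Heat shock genes were higher in the combination with no measured member past 1.5-fold the other way. They encode chaperones that hold and refold other proteins, and heat shock factor switches many of them on through repeats of the letters GAA in their promoters. Of 16 measured members, 10 were at least 1.5-fold higher in the combination, against 6.55% of all genes, and none lower, and their median log2 ratio was 0.69 against -0.12 over all genes. Without clipped cells 13 were higher and none lower, with a median of 0.63, and the 10 members stayed among them. Summed over the list, the median cell held 66.6 UMIs per 10000 in vehicle (lowest 29.9, highest 153) and 122 in the combination (lowest 29.5, highest 247). The libraries overlapped, but 89 of 100 combination cells lay above the vehicle median and 2 of 40 vehicle cells above the combination median. In vehicle the sum was higher in deeper cells (Spearman's rho 0.58 over 40 cells), while in the combination it hardly followed depth (0.09 over 100 cells). The list's median stayed between 0.63 and 0.83 in all 14 alternatives, thinning to equal depth among them.

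Single members show how broad the difference was. Hsph1 (GRCm38 chr5:149614287-149636376), an Hsp110 chaperone that recharges Hsp70, was found in 28 of 40 vehicle cells and 93 of 100 combination cells, at 1.11 and 3.12 UMIs per 10000. The median cell held 0.65 in vehicle and 1.82 in the combination. Its log2 ratio was 1.49 (1.21 to 1.78), a 2.81-fold higher level, and 1.90 without clipped cells. After thinning, 23.1% of vehicle and 58.0% of combination cells had a UMI. Dnajb1, an Hsp40 cochaperone, stood at 0.96 and 1.89, a log2 ratio of 0.97 (0.66 to 1.29). Dnaja1, another Hsp40, was found in every cell of both libraries, at 3.30 and 6.00, a log2 ratio of 0.86 (0.70 to 1.03). Hspd1, the mitochondrial Hsp60, stood at 2.59 and 4.67. Hspa1a, an inducible Hsp70, stood at 3.41 in vehicle, found in 24 of 40 cells, and 6.66 in the combination, in 76 of 100. Hspa1a and Hspa1b are near-identical genes whose reads can be split between them, so their sum is the safer value, 9.04 against 13.9 UMIs per 10000, a log2 ratio of 0.62 (0.51 to 0.72). The abundant Hsp90ab1, a cytosolic Hsp90, stood at 21.05 and 33.0. Chordc1, an Hsp90 partner, was the only measured member below a ratio of 1, at 0.94 and 0.78.

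Promoters of the listed genes were read for 2 short motifs because many members were higher together. The sequences are RefSeq's, build GRCm38.p6, 250 bases upstream of the start, 5′ to 3′ on the gene's strand, in lower case with each match in capitals. For the heat shock genes the capitals mark GAANNTTC, 2 GAA repeats facing each other, searched on both strands. Hspd1 lies on chr1:55087933-55088182 on the minus strand and Hspa1a on chr17:34972157-34972406 on the minus strand.
Hspd1: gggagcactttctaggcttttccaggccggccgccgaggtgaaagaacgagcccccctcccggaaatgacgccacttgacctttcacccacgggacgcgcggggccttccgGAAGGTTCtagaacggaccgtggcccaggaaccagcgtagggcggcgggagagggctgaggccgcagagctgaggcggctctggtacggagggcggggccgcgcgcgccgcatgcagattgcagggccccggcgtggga
Hspa1a: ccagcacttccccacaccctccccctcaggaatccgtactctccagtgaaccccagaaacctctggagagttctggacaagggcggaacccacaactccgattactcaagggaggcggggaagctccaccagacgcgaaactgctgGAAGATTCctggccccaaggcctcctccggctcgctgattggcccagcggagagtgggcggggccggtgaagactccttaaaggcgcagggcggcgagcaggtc
The motif was found for 6 of 13 measured heat shock genes with a listed promoter, against 3 of 25 early genes and 7.73% of all genes. A match says only that these letters are in this window.

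Receptor-induced early genes were higher as a group, with exceptions. These are transcription factors and feedback regulators that T cells switch on shortly after receptor or stress signals. Of 30 measured members, 14 were at least 1.5-fold higher in the combination, against 6.55% of all genes, and 3 were lower, with a median log2 ratio of 0.48. Among the 75 and 36 cells left without clipped ones, 13 members passed 1.5-fold upward and 2 downward (median 0.33). The list's sum per cell had a median of 59.9 UMIs per 10000 in vehicle (12.0 to 194) and 78.9 in the combination (10.9 to 187), and 70 of 100 combination cells lay above the vehicle median. The ranges covered each other almost fully. The sum hardly followed the heat shock sum from cell to cell (rho -0.02 over 40 vehicle cells, 0.18 over 100 combination cells).

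**Figure D2:**
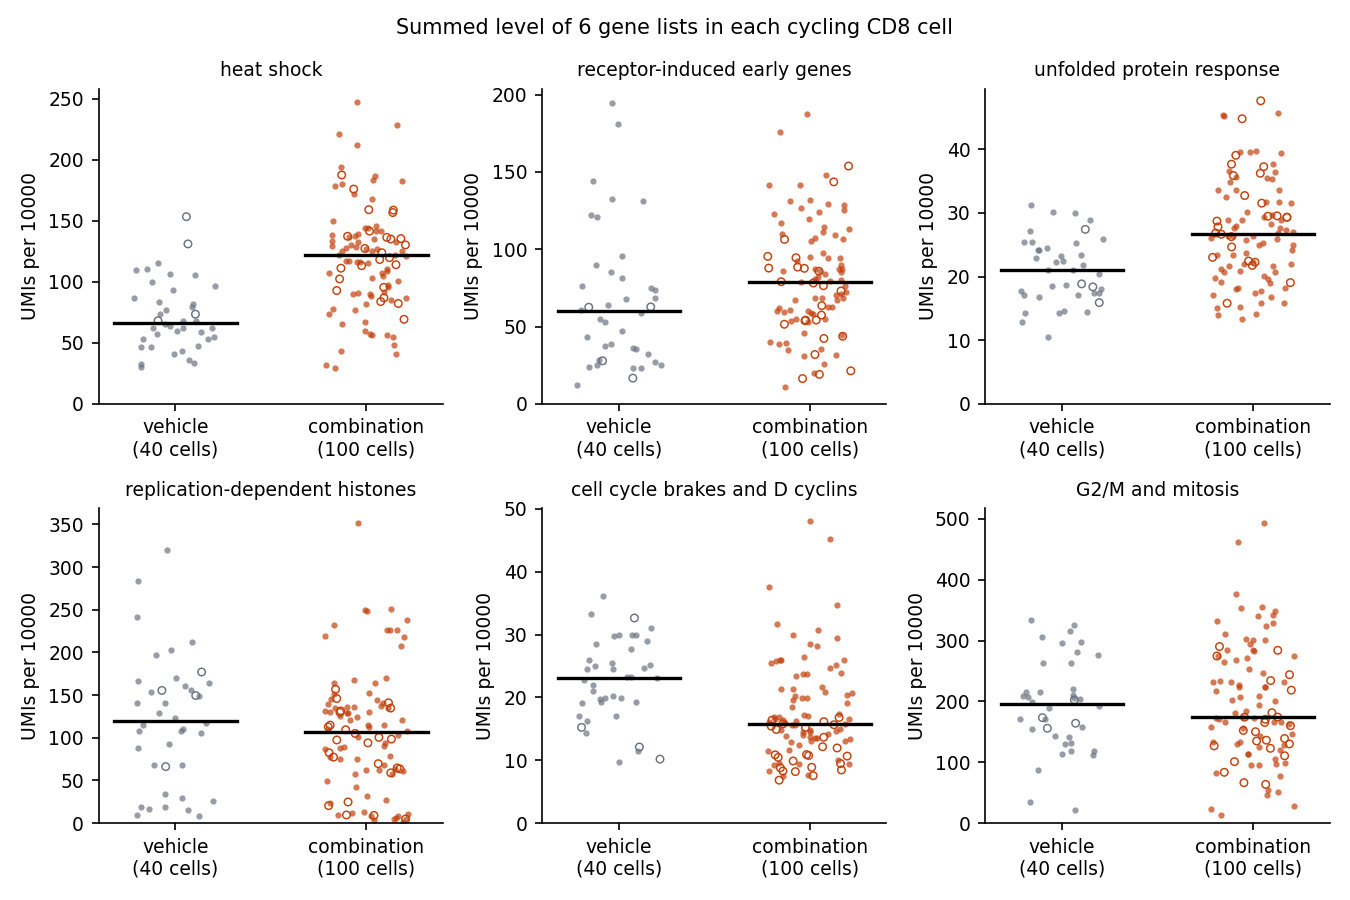
Each point is 1 cycling CD8 cell and the y axis is the summed level of a list in UMIs per 10000; black bars are medians and open circles are clipped cells. The heat shock medians are 66.6 in vehicle and 122 in the combination, with 89 of 100 combination cells above the vehicle median; the histone medians are 120 and 107.

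Fosb (GRCm38 chr7:19302696-19310051), a partner in the AP-1 transcription factor, differed most among the early genes. It was found in 19 of 40 vehicle cells and 83 of 100 combination cells, at 0.56 and 2.24 UMIs per 10000. The median cell held none in vehicle and 1.15 in the combination, and the highest cells held 4.61 and 17.4. The log2 ratio was 2.0 (1.61 to 2.41), a 4.0-fold higher level, and 1.94 without clipped cells. After thinning, 23.1% of vehicle and 46.0% of combination cells had a UMI. Fos, another AP-1 factor, stood at 0.56 in 18 vehicle cells and 1.30 in 76 combination cells, a log2 ratio of 1.21 (0.81 to 1.64). Fosb and Fos were found together in 12 of 40 vehicle cells and 68 of 100 combination cells.

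The Nr4a family, nuclear receptors that follow T cell receptor signals, differed among its members. Nr4a3 was found in 14 vehicle and 57 combination cells, at 0.38 and 0.81, a log2 ratio of 1.10 (0.61 to 1.63). Nr4a1 was found in 10 of 40 vehicle cells and 67 of 100 combination cells, at 0.62 and 1.20, and 1 vehicle cell held 42.2% of that library's UMIs. Its log2 ratio was 0.96 (0.57 to 1.36), and 1.51 without the cell of each library with most of them. Nr4a2 stood at 3.88 and 4.49, a log2 ratio of 0.21. Of the feedback regulators, Nfkbia, the inhibitor of NF-kappaB, stood at 2.73 and 5.46, a log2 ratio of 1.0 (0.82 to 1.19), and the phosphatase Dusp4 at 0.29 and 0.59. Junb stood at 4.30 and 8.24. On the other side, Jun stood at 4.59 and 4.16, Egr1 at 1.14 and 0.86, and Zfp36l1, an mRNA decay factor, at 2.37 and 1.44, a log2 ratio of -0.72 (-0.95 to -0.49). Zfp36l1 passed 1.5-fold, but its ratio of -0.53 without clipped cells did not.

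For the early genes the capitals mark TGACG, the core of the cyclic AMP response element, searched on both strands. Fos lies on chr12:85473640-85473889 on the plus strand and holds 2 matches, and Fosb on chr7:19310046-19310295 on the minus strand.
Fos: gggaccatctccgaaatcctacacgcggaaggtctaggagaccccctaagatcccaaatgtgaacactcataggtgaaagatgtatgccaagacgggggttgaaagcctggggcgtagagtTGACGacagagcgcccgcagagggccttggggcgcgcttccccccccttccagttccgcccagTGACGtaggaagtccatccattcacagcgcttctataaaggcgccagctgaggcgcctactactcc
Fosb: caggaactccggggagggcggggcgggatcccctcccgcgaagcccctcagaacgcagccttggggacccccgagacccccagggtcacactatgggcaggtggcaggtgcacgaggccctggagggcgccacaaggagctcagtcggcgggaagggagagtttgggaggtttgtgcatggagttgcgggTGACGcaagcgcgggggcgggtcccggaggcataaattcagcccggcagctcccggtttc
The letters were found for 13 of 25 measured early genes with a listed promoter, but also for 7 of 13 heat shock genes, and for 19.8% of all genes.

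Stress of tissue dissociation raises many of the same genes, and a list of such genes was read beside them. Of its 17 measured members, 11 were higher in the combination (6.55% over all genes) and none lower, with a median log2 ratio of 0.78, or 0.74 without clipped cells. All its measured members but Atf3 and Socs3 are on the early gene or heat shock lists above, so it is no separate result. Fos, Fosb, Junb, Nfkbia and Hspa1a are among the shared genes. Handling time and digestion of the tumours are not given in the sources used here, and their part was not tested. Genes of the unfolded protein response, the stress programme of the endoplasmic reticulum, were also higher in part, 6 of 20 measured against 6.55% of all genes, and none lower, with a median of 0.34 (0.21 without clipped cells). Hspa5, its main chaperone, was found in nearly every cell, at 3.54 and 6.61, a log2 ratio of 0.90 (0.74 to 1.07). Pdia6, a disulfide isomerase, stood at 1.0 and 1.73, and was within 1.5-fold without clipped cells (0.47). Atf3, a stress-induced factor on the dissociation list too, stood at 0.13 in 6 of 40 vehicle cells and 0.45 in 35 of 100 combination cells, a log2 ratio of 1.86 (1.04 to 2.80). Ddit3, which encodes the factor CHOP, was not among the higher genes, at 0.40 and 0.29.

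**Figure D3:**
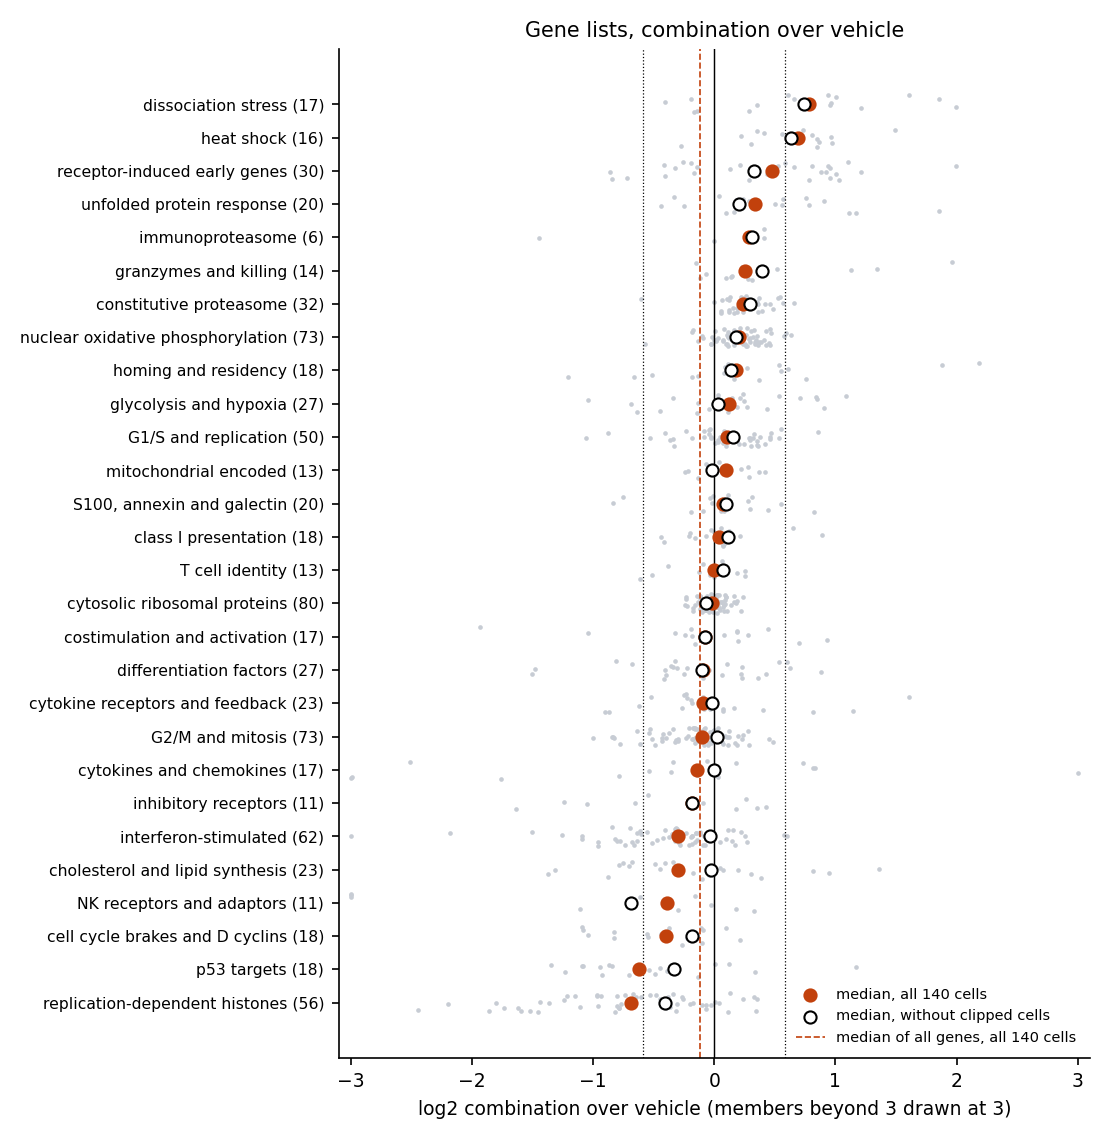
Rows are gene lists with their measured members in brackets, and the x axis is the log2 ratio of combination over vehicle; grey points are members, orange points list medians over all 140 cells, and white points medians without clipped cells. Dotted lines mark 1.5-fold, the dashed line the median of all genes (-0.12), and members beyond 3 are drawn at 3. Heat shock (0.69 and 0.63) lies right of the line in both readings, while the interferon median moves from -0.30 to -0.04.

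Cell cycle position was much alike in the libraries. Genes of G1/S and replication summed to a median of 57.1 UMIs per 10000 in vehicle cells and 58.9 in combination cells, and genes of G2/M and mitosis to 196 and 174. Of 50 measured G1/S genes 1 was higher and 2 lower, and of 73 G2/M genes none was higher and 7 lower, against 19.9% of all genes. The mitotic cyclin Ccna2 stood at 2.18 and 2.12, and its kinase Cdk1 at 2.87 and 2.81. Ttk and Nek2, kinases of mitosis, were lower, Nek2 at 0.72 and 0.36, a log2 ratio of -1.0 (-1.43 to -0.56).

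Replication-dependent histone genes, which package newly copied DNA, differed more one by one than in sum. Of 56 measured members, 31 were at least 1.5-fold lower in the combination, against 19.9% of all genes, and none higher, with a median log2 ratio of -0.69. Without clipped cells 21 were lower, against 13.6% of all genes, and 4 higher, with a median of -0.41, and after thinning the median was -0.21. The sum over all 62 genes differed less, 127 UMIs per 10000 in vehicle and 101 in the combination, a log2 ratio of -0.32 (-0.35 to -0.30), or -0.10 without clipped cells. Hist1h2bg, an H2B gene, stood at 0.97 in 26 vehicle cells and 0.27 in 40 combination cells, a log2 ratio of -1.86 (-2.29 to -1.43). Hist1h1d, a linker histone, stood at 3.54 and 1.64, a log2 ratio of -1.11 (-1.30 to -0.91). The most abundant, Hist1h2ap, stood at 39.2 and 28.04, while the linker histone gene Hist1h1b stood at 6.66 and 8.34. Histone genes are near-identical copies, and reads may be split between them or lost, so single members are uncertain. Lost reads would be missing from the sum of the list too, so it is no full measure of histone RNA. By the sum of the list, 23 of 40 vehicle cells and 47 of 100 combination cells were above the median of the pooled cells.

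Brakes of the cell cycle and targets of p53 had medians below 0 in the combination, nearer 0 without clipped cells. Of 18 measured brake and D cyclin genes, 5 were lower and none higher, with a median log2 ratio of -0.40, or 3 lower and -0.19 without clipped cells. Beside the 19.9% of all genes that were lower, or 13.6% without clipped cells, these counts are near the background. The list's sum had a median of 23.1 UMIs per 10000 in vehicle cells and 15.7 in combination cells, and 34 of 40 vehicle cells lay above the combination median. Of 18 measured p53 targets, 9 were lower (19.9% of all genes) and 1 higher (6.55%), with a median of -0.62. Without clipped cells 5 were lower (13.6% of all genes) and 2 higher (8.53%), and the median was -0.34. Ccng1, a p53-induced cyclin on both lists, stood at 1.83 and 0.86, a log2 ratio of -1.09 (-1.36 to -0.82), and -0.94 without clipped cells. Cdkn1a, the CDK inhibitor p21, stood at 1.58 and 0.75. Its log2 ratio of -1.09 (-1.38 to -0.79) shrank to -0.10 without clipped cells, and 40.2% of the vehicle UMIs lay in 1 cell. Cdkn2a, which encodes the INK4A inhibitor and ARF, stood at 0.47 and 0.23, with -0.81 without clipped cells. Trp53, which encodes p53, stood at 1.45 in both libraries.

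Among genes of survival outside the lists, Bcl2 and Bcl2l11 were both lower. Bcl2 (GRCm38 chr1:106538178-106714274), which blocks apoptosis, was found in 38 of 40 vehicle and 85 of 100 combination cells, at 4.73 and 1.79 UMIs per 10000. The median cell held 4.34 in vehicle and 1.30 in the combination, and the highest cells held 29.9 and 7.81. The log2 ratio was -1.40 (-1.58 to -1.23), a 2.65-fold lower level, and -1.30 without clipped cells. Bcl2l11, which encodes the opposing protein Bim, stood at 2.65 in 36 vehicle cells and 1.07 in 72 combination cells. Its log2 ratio was -1.31 (-1.54 to -1.08), and after thinning 61.5% of vehicle and 33.0% of combination cells had a UMI. Both vehicle medians lay above those of the combination, but the cells overlapped down to 0 in each library.

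Killing genes were mostly within 1.5-fold. Of 14 measured members, 3 were higher and none lower, against 6.55% and 19.9% of all genes, with a median log2 ratio of 0.25. Gzmb, the main granzyme, stood at 7.5 in vehicle and 8.76 in the combination, with median cells of 2.88 and 2.98 and a log2 ratio of 0.23 (0.11 to 0.34). Without clipped cells that ratio was 0.73, past 1.5-fold. Prf1, perforin, stood at 2.48 and 3.00 (0.28 and 0.65 without clipped cells). Without cells with NK markers the ratios of Gzmb and Prf1 turned to -0.31 and -0.13, so no direction is read for them. Nkg7, a granule protein, stood at 13.6 and 16.9. Gzma, another granzyme, stood at 0.90 and 3.5, but 760 of its 1132 combination UMIs lay in 1 cell and 59 of 93 vehicle UMIs in 1 cell. Gzmc was found in 10 vehicle and 21 combination cells, at 0.15 and 0.37. Gzme stood at 0.10 and 0.21, in 4 and 6 cells.

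Cytokines and chemokines, 17 of them measured, had 4 members higher and 5 lower, against 6.55% and 19.9% of all genes. Ifng, interferon-gamma, stood at 2.10 and 1.90, a log2 ratio of -0.14 (-0.37 to 0.09), and was found in 24 of 40 vehicle and 81 of 100 combination cells. Ccl5, a chemokine of effector cells, stood at 18.5 and 10.7, a log2 ratio of -0.79 (-0.87 to -0.71), and -0.42 without clipped cells. Ccl3 and Ccl4, chemokines of activated cells, stood at 3.77 and 2.98 and at 6.32 and 4.95. Their log2 ratios of -0.34 and -0.35 became 0.78 and 0.70 without clipped cells. Xcl1, which draws cross-presenting dendritic cells, stood at 5.82 and 6.58, with -0.54 without clipped cells, so no direction is read for these 3 genes. Tnfsf8, the CD30 ligand, was lower without such dependence, at 0.85 in 23 of 40 vehicle cells and 0.15 in 14 of 100 combination cells. Its log2 ratio was -2.51 (-3.05 to -1.99), a 5.72-fold lower level, and -2.63 without clipped cells. Csf1, the macrophage growth factor, stood at 0.47 and 0.14. Ratios of Csf2, Ccl1 and Areg rested on few cells. Of the 51 vehicle UMIs of Csf2 38 lay in 1 cell, and of the 206 of Ccl1 204 did. Areg was at 0 in vehicle, and 88 of its 205 combination UMIs lay in 1 of 14 cells. Against a floor of 3 UMIs over the vehicle cells, Areg was 21.9-fold higher, a log2 ratio of 4.45 with a lower interval limit of 4.14. Without clipped cells the ratio was only 1.01, with a lower limit of 0.51. Both ratios depend on the floor.

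Inhibitory receptors, 11 of them measured, had no member higher and 4 lower, against 6.55% and 19.9% of all genes. Pdcd1 stood at 1.58 in vehicle and 2.02 in the combination, a log2 ratio of 0.35 (0.10 to 0.61), and was found in 32 of 40 and 93 of 100 cells. Lag3 stood at 1.81 and 2.17, and Havcr2, which encodes TIM-3, at 0.60 and 0.41. Tigit was low in both, at 0.18 and 0.06, in 14 and 13 cells, and its ratio turned to 1.23 after thinning. Cd200r4 stood at 0.73 and 0.31, a log2 ratio of -1.24 (-1.69 to -0.79), and Cd244, a receptor for CD48, at 0.65 and 0.31. The 4 lower genes passed 1.5-fold without clipped cells too.

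Costimulatory genes went both ways, with 2 of 17 higher and 2 lower, near the 6.55% and 19.9% of all genes. Icos, a costimulatory receptor of activated T cells, stood at 0.61 in 21 of 40 vehicle cells and 1.16 in 77 of 100 combination cells, a log2 ratio of 0.93 (0.54 to 1.34). Cd226, which binds CD155, stood at 0.88 and 1.43, with a log2 ratio of 0.70 that was 0.52 without clipped cells. Tnfrsf18, which encodes GITR, stood at 2.78 and 1.35, a log2 ratio of -1.04 (-1.26 to -0.82). Cd7 was found in 25 of 40 vehicle cells and 25 of 100 combination cells, at 1.35 and 0.35, a log2 ratio of -1.94 (-2.31 to -1.57). In the combination 41.2% of its UMIs lay in 1 cell, and in vehicle 27.9%. Without those cells the log2 ratio was -2.26, and without clipped cells it was -1.50.

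Of 27 measured differentiation factors, 3 were higher and 4 lower, near the 6.55% and 19.9% of all genes. Tox, a factor of exhausted cells, stood at 3.96 and 3.00, a log2 ratio of -0.40 (-0.57 to -0.23). Tcf7 and Lef1, factors of stem-like and memory cells, were low in both libraries, Tcf7 at 0.19 in 9 vehicle cells and 0.07 in 7 combination cells, and Lef1 at 0.16 and 0.06. Irf4, induced by receptor signals, stood at 0.18 and 0.34, and its partner Batf at 0.25 and 0.38. Myc stood at 0.74 and 0.42, and Prdm1, which encodes Blimp-1, at 0.74 and 0.46. Zeb2, a factor of effector cells, stood at 0.76 and 1.17. Myc, Prdm1 and Zeb2 were within 1.5-fold without clipped cells (log2 ratios of -0.52, -0.55 and 0.44).

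Homing genes had 4 of 18 members higher and 2 lower, against 6.55% and 19.9% of all genes. Without clipped cells 1 of 16 was higher and 2 lower. Cxcr4, a chemokine receptor, stood at 0.39 and 0.17, a log2 ratio of -1.21 (-1.82 to -0.58). Ccr7, the receptor for entry to lymph nodes, stood at 0.09 and 0.40, but 57 and 47 of its 128 combination UMIs lay in 2 cells. Without clipped cells its ratio turned to -2.06. The other higher members, Ccr8, Ccr2 and Il7r, each changed sign under an alternative. Ccr8 turned to -2.94 after thinning, Ccr2 to -0.19 without cells with NK markers, and Il7r to -0.11 with equal weight per cell. Among cytokine receptors and their signal genes, 3 of 23 were higher and 3 lower, near the same shares of all genes. Stat5a stood at 0.17 in 12 vehicle cells and 0.38 in 50 combination cells, a log2 ratio of 1.14 (0.42 to 1.95). Stat4, which acts below the IL-12 receptor, stood at 1.11 and 1.95 (0.82, or 0.48 without clipped cells). Socs3, a feedback inhibitor also on the dissociation list, stood at 0.08 in 4 of 40 and 0.23 in 35 of 100 cells. Its ratio turned to -0.36 after thinning.

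Antigen presentation and proteasome genes differed by small amounts. Of 18 class I genes 2 were higher and none lower, against 6.55% and 19.9% of all genes. The higher genes were the chaperone Calr at 3.26 and 6.04 and the loading partner Pdia3 at 2.32 and 3.65. Pdia3 was within 1.5-fold without clipped cells (0.52). B2m, the light chain of MHC class I, stood at 31.4 and 31.5, a log2 ratio of 0.0007 (-0.06 to 0.06). Of 32 constitutive proteasome genes 1 was higher and 1 lower, against the same shares of all genes. Of the 32, 30 lay above a ratio of 1, with a median log2 ratio of 0.24, or 0.30 without clipped cells. The median of all genes was -0.12, or -0.04 without clipped cells. Clipping lowers weakly expressed genes more, and the part of expression level in this difference was not tested. The list's sum had a median of 40.8 in vehicle cells and 49.8 in combination cells, and 83 of 100 combination cells lay above the vehicle median. Psmb5, a catalytic subunit, stood at 1.23 and 1.94 (0.65, or 0.56 without clipped cells). Psmd4, a ubiquitin receptor of the proteasome, stood at 1.44 and 1.6, a log2 ratio of 0.16 (-0.11 to 0.43). Interferon-stimulated genes had 20 of 62 members lower and 1 higher, against 19.9% and 6.55% of all genes, with a median log2 ratio of -0.30. Without clipped cells 8 were lower and 5 higher, against 13.6% and 8.53% of all genes, with a median of -0.04. Mx1, an antiviral GTPase, stood at 0.90 and 0.32, a log2 ratio of -1.51 (-1.93 to -1.09), and -1.16 without clipped cells. Oasl2 stood at 0.31 in 7 vehicle cells and 0.03 in 5 combination cells. Irf1, induced by interferon-gamma, stood at 0.66 and 1.0.

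Metabolic and general T cell lists had median log2 ratios within 1.5-fold. Nuclear genes of the respiratory chain had 2 of 73 members higher and none lower, against 6.55% and 19.9% of all genes. Their median log2 ratio was 0.20, against -0.12 over all genes, and 63 of the 73 lay above a ratio of 1. Without clipped cells the medians were 0.18 and -0.04, and the part of expression level was not tested here either. Their sum had a median of 186 UMIs per 10000 in vehicle cells and 219 in combination cells. Above the vehicle median lay 76 of 100 combination cells. Of 13 T cell identity genes 1 was lower and none higher (median -0.005). Among 20 S100, annexin and galectin genes 1 was higher and 2 lower (median 0.08). Of 13 genes of the mitochondrial chromosome and 80 of the cytosolic ribosome none passed 1.5-fold. These counts stand beside the same shares of all genes. Glycolysis and hypoxia genes had 5 of 27 higher and 3 lower, against 6.55% and 19.9% of all genes, with a median log2 ratio of 0.12. The sum of this list had a median of 56.6 in vehicle cells and 73.0 in combination cells. For it, 70 of 100 combination cells lay above the vehicle median. Hk2, a hexokinase, stood at 0.19 and 0.36, and Slc16a3, a lactate exporter, at 0.13 and 0.29. Both ratios turned after thinning, to -0.36 and -0.77. Cholesterol and lipid genes had 3 of 23 higher and 7 lower, beside 6.55% and 19.9% of all genes, with a median of -0.30. Without clipped cells 4 of 21 were higher and 4 lower, beside 8.53% and 13.6%, with a median of -0.02. Acaca, the rate-limiting enzyme of fatty acid synthesis, stood at 0.09 and 0.22, and Fdft1, which makes squalene, at 0.28 and 0.11.

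**Figure D4:**
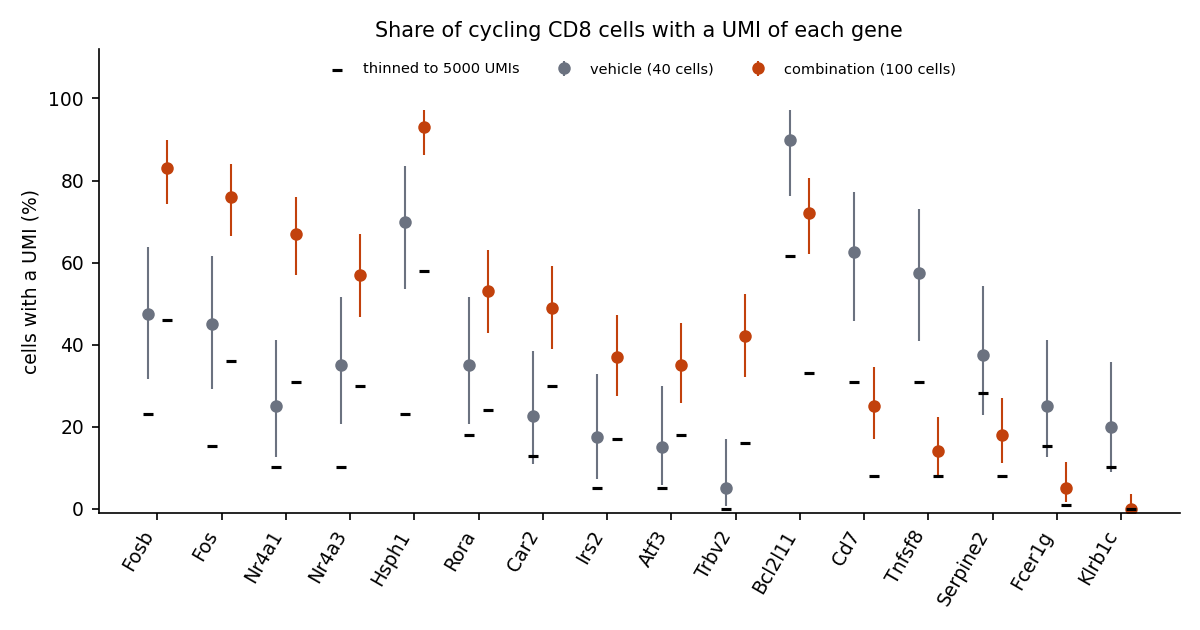
The y axis is the percent of cells with a UMI of each gene in vehicle (grey, 40 cells) and the combination (orange, 100 cells), with exact 95% intervals for counting error; black dashes are the percent after thinning each cell to 5000 UMIs. Fosb was found in 47.5% and 83.0% of cells and Cd7 in 62.5% and 25%, and the order of the libraries is the same after thinning for each of the 16 genes.

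Receptors and adaptors of natural killer (NK) cells were in part lower in the combination. Of 24 listed genes in the data 11 were measured. Of these 5 were lower, against 19.9% of all genes, and none higher, and 6 were lower without clipped cells, against 13.6%. The list's median log2 ratio of -0.39 ran from -1.09 to 0.21 over the 14 alternatives. Fcer1g and Klrb1c entered through vehicle only, as each was found in under 10% of combination cells. Their place among the lower genes is thus in part set by how they entered. Fcer1g (GRCm38 chr1:171229572-171234365), a signalling adaptor, stood at 0.92 in 10 of 40 vehicle cells and 0.06 in 5 of 100 combination cells, a log2 ratio of -3.96 (-4.76 to -3.24). Klrb1c, which encodes NK1.1, held 29 UMIs in 8 vehicle cells and none in the combination, where 0 of 100 cells allows up to 3.62% of cells with a deposited UMI by the exact interval. That is no limit on the cells that express it, and a single UMI would not show in the 25 clipped cells. Against a floor of 3 UMIs over the combination cells it was 30.1-fold lower, a value that depends on the floor. Klra3, an inhibitory receptor of the Ly49 family whose genes are similar, stood at 0.55 and 0.06, and 29 of its 57 vehicle UMIs lay in 1 cell. Klrd1, which pairs with NKG2 receptors and is common on effector CD8 cells, stood at 5.4 and 6.79. Fcer1g and Klrb1c were found together in 3 vehicle cells.

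Markers of other cell types were read in the same cells. The NK list of 7 genes summed to 1.75 UMIs per 10000 in vehicle and 0.448 in the combination, with at most 11.4 and 5.64 in a cell. Of its defining genes Ncr1 and Klra8 were at 0 in both libraries, and its leading gene was Fcer1g in vehicle and Eomes in the combination. A UMI of Fcer1g, Tyrobp, Klrb1c or Ncr1 was present in 17 of 40 vehicle and 6 of 100 combination cells. Without those cells, an alternative chosen after seeing the data, 950 of 8294 genes were higher (11.5%) and 1446 lower (17.4%). The heat shock and early gene medians were then 0.78 and 0.57. The monocyte or macrophage list summed to 2.50 and 1.79, led by Ly6c2, which CD8 T cells also express. Lists of B, dendritic, epithelial tumour, fibroblast, endothelial and red cells, neutrophils and mast cells each summed to at most 0.405 in either library. The gamma-delta T cell list, led by Tcrg-C2, summed to 1.28 and 1.42. The list of conventional CD4 T cells summed to 1.47 and 1.32, with Cd40lg at 0 in both. Its near-equal sums came from different genes, led by Tnfsf8 in vehicle (88 of 153 UMIs) and Icos in the combination (374 of 427). Cd4 itself had a UMI in 2 of 40 vehicle and 4 of 100 combination cells. Foxp3 was at 0 by the selection, while Ikzf2 led the regulatory T cell list, which summed to 7.29 and 6.91. The part of other cells in the differences was not tested.

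T cell receptor variable genes differed in which one was found. The table holds 39 such genes, of which 28 had a UMI in these cells and 3 had enough UMIs to be compared. Trbv2, a variable segment of the beta chain, was found in 2 of 40 vehicle cells, 5.00% (0.611 to 16.9), and 42 of 100 combination cells, 42.0% (32.2 to 52.3). Its level was 0.06 and 0.35 UMIs per 10000, a log2 ratio of 2.61 (1.44 to 4.08). Any Trbv gene was found in 16 of 40 vehicle and 63 of 100 combination cells, and 2 combination cells held Trbv2 with another Trbv gene. After thinning, none of the vehicle and 16% of the combination cells had a UMI of Trbv2. In the single treatments, whose cells held fewer UMIs, Trbv2 was found in none of 38 ATT-I cells and 12.3% of 1957 anti-PD-1 cells. Whether the pooled tumours differed in their T cell clones was not tested. Only 12 Trbv genes are in the table, so other segments are not analysed here. Trav5-4, a segment of the alpha chain, stood at 0.39 in 8 vehicle cells and 0.12 in 11 combination cells. Trgv2, of the gamma chain, was found in 18 and 55 cells, at 0.82 and 0.91.

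Outside the lists, the 15 highest and 15 lowest genes with at least 100 UMIs, found in at least 25% of the cells of the library where they were higher, were named by rule. Irs2 (GRCm38 chr8:10984681-11008458), an adaptor of insulin and cytokine receptors, stood at 0.12 in 7 vehicle cells and 0.71 in 37 combination cells, a log2 ratio of 2.62 (1.79 to 3.59). Car2, a carbonic anhydrase, stood at 0.11 in 9 vehicle and 0.64 in 49 combination cells, a log2 ratio of 2.59 (1.72 to 3.61). Rora, a nuclear receptor of lymphocytes, stood at 0.30 in 14 vehicle and 1.23 in 53 combination cells, a log2 ratio of 2.04 (1.51 to 2.62), and 1.39 without clipped cells. Irs2 and Rora were found together in 3 of 40 and 27 of 100 cells. Sik1, a kinase induced by cyclic AMP, stood at 0.54 in 22 vehicle and 1.32 in 84 combination cells, a log2 ratio of 1.29 (0.89 to 1.72). Others among the highest were Polr3d, Chst2, Tcf4, Sertad1, Gna15, Csrnp1, Gusb, Errfi1, Camta1 and Glrx2, with log2 ratios from 1.27 (Glrx2) to 1.88 (Polr3d). Tnfsf11, which encodes RANKL, stood at 1.63, but at -0.22 without clipped cells. Among the lowest beside Bcl2 and Bcl2l11, Serpine2, a protease inhibitor, stood at 1.05 in 15 vehicle and 0.19 in 18 combination cells, a log2 ratio of -2.43 (-2.90 to -1.97). Clec2i, a C-type lectin, stood at 1.12 and 0.30, a log2 ratio of -1.91 (-2.32 to -1.51). The other 11 lay between -1.66 (Zfp652) and -1.16 (Trappc13), and each was also lower without clipped cells.

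Set beside the single treatments, the cycling CD8 cells of the combination stood apart in heat shock genes. The list's median cell held 68.7 UMIs per 10000 in ATT-I and 68.9 in anti-PD-1, near the 66.6 of vehicle, against 122 in the combination. Hsph1 stood at 0.90 in ATT-I and 0.56 in anti-PD-1, against 1.11 in vehicle and 3.12 in the combination. Nr4a1 stood at 0.28 and 0.18 in the single treatments, under both vehicle and the combination. For Fosb the order was vehicle, anti-PD-1, ATT-I and the combination, at 0.56, 0.88, 1.39 and 2.24, while Fos was highest in ATT-I, at 1.85. For some genes vehicle stood apart from the 3 treated libraries instead. Bcl2l11 stood at 2.65 in vehicle against 0.64 in ATT-I, 0.64 in anti-PD-1 and 1.07 in the combination, and Tnfsf8 at 0.85 against 0.24, 0.16 and 0.15. The brake list's median cell held 23.1 in vehicle, 15.7 in ATT-I, 13.4 in anti-PD-1 and 15.7 in the combination. Fcer1g was lowest in the combination, at 0.06, against 0.996 in ATT-I and 2.55 in anti-PD-1. The median member held 18379 UMIs in ATT-I and 13741 in anti-PD-1, fewer than in vehicle and the combination, and all comparisons share the 1 vehicle library.

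**Figure D5:**
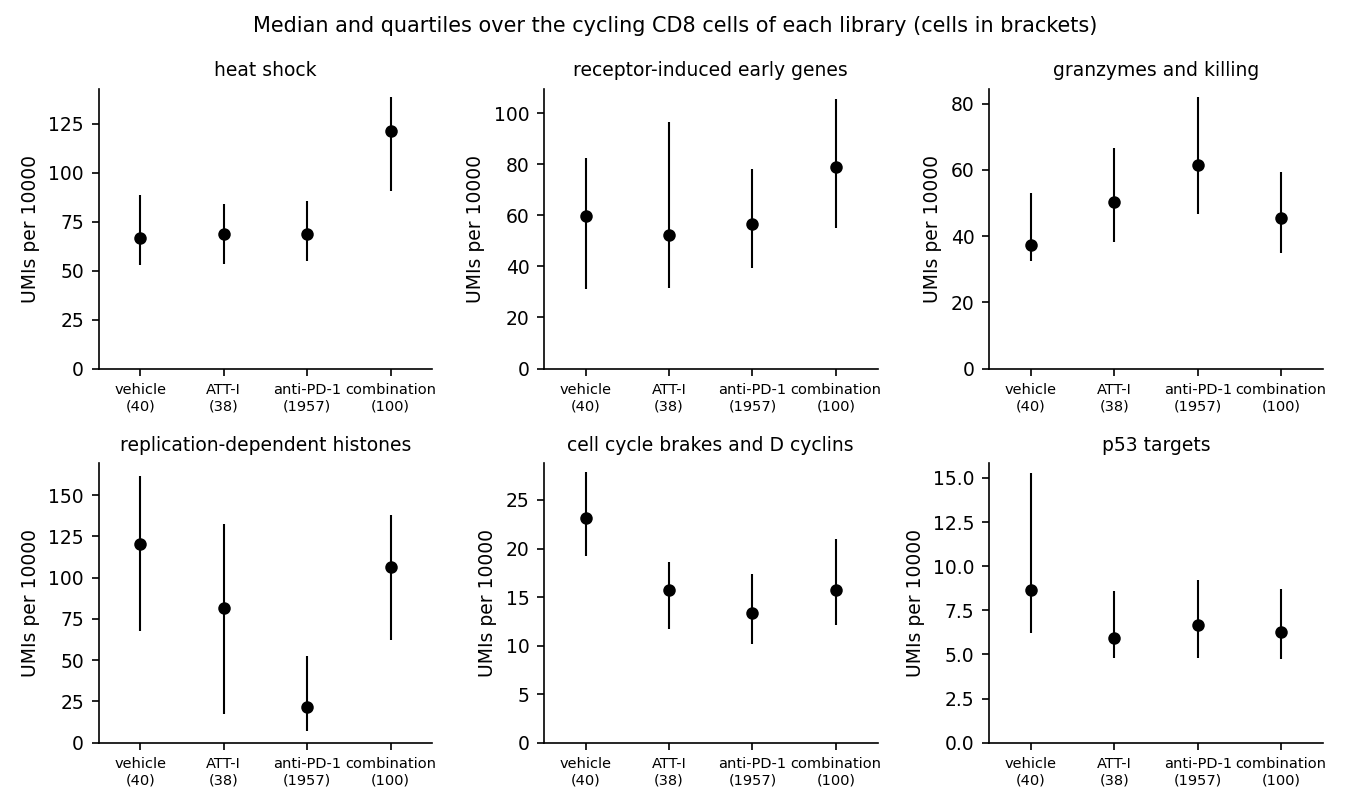
Points are medians and lines quartiles, over the cycling CD8 cells of each library, of the summed level of 6 lists in UMIs per 10000; the number of cells is in brackets. The heat shock median is 66.6 in vehicle, 68.7 in ATT-I, 68.9 in anti-PD-1 and 122 in the combination, and the brake median is 23.1 in vehicle and 13.4 to 15.7 in the others.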

How the data were processed

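Single-cell RNA was measured by 10x Genomics droplets in 4 libraries, 1 per arm, each from 5 pooled tumours. Cell Ranger and Seurat, with no version, and build mm10 are listed in the submitters' processing notes. The authors' deposited values are natural log (ln) values per gene and cell, in a table of 13518 genes. Each is the ln of 1 plus UMIs per 10000, less a constant per library (0.247 in vehicle, 0.225 in the combination) that the labels do not explain, with negatives at 0. Whole UMIs were recovered from them, with 100% of non-zero values within 0.02 of a whole number, and the recovery, the ratios and the thinning were tested on simulated data. Levels were summed over member cells. With 1 library per arm there is no test. Called means at least 1.5-fold; a library at 0 took a floor of 3 UMIs. No doublet caller was run and no cell was removed. The cells, lists and alternatives were chosen with earlier results of these data known. In each list up to 4 highest and 4 lowest members past 1.5-fold, genes of defining roles, and the 15 highest and lowest genes outside the lists were named by rule, and further list members were chosen after their values were seen. Gene positions are from GENCODE on GRCm38. Code ran in Python 3.11.15, numpy 2.4.6, scipy 1.17.1 and pandas 2.3.3.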

Additional observations from a re-analysis of the deposited data

How the results depend on the processing

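Genes and lists were recomputed under 14 alternatives, and named genes also without the top cell of each library and as differences of mean deposited values. Leaving out cells of over 50000 UMIs, leaving out cells with NK markers and reading counts of 1 as 0 were chosen after seeing the data. The number of genes that entered differed between alternatives, so counts are given with it. The count of lower genes (1736 of 8705) became 3270 of 11159 with no filter on low genes and 717 of 4653 after thinning. It became 1149 of 8425 without clipped cells and 1035 of 6890 with counts of 1 read as 0. The count of higher genes (570 of 8705) became 950 of 8294 without cells with NK markers and 1045 of 6890 with counts of 1 read as 0. The interferon median (-0.30) became -0.18 when centred on the median gene, -0.11 with equal weight to histone-high and histone-low cells and -0.037 without clipped cells, and the histone median (-0.69) became -0.21 after thinning. Of 165 named genes, 49 stayed inside their counting interval in every alternative on the log2 scale. At least 1 alternative changed the sign of 41, of which 26 were past 1.5-fold in the main reading and 15, such as Ccl3, Ccl4, Xcl1, Gzmb and B2m, were not. The sign changes that follow are those of the 26. Thinning turned Lta (-0.36), Tigit (1.23), Ccr8 (-2.94), Il6st (0.057), Il4ra (0.23), Socs3 (-0.36), Gins3 (0.10), Ung (-0.037), Gadd45a (-0.14), Pdk1 (0.76), Slc16a3 (-0.77), Hk2 (-0.36), Mvk (1.23), Fdps (-0.037), Asns (-0.037), Klrb1b (0.23) and Tyrobp (0.23), where few UMIs remain. Leaving out clipped cells turned Tnfsf14 (-0.34), Ccr7 (-2.06), Psmd5 (0.015) and Tnfsf11 (-0.22). Leaving out cells with NK markers turned Ccl1 (2.99), Egr3 (2.17), Ccr2 (-0.19) and Elovl6 (1.74). Tnfsf14 was also turned by leaving out cells of over 50000 UMIs (-0.61) and by leaving out the top cell (-0.17), which turned Ccl1 (2.66) too. Equal weight per cell turned Il7r (-0.11). The cause of each was not tested. No paired analysis was possible because each arm has 1 library and no test was run. Depth limits genes under about 20 UMIs over both libraries, which were not compared.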
